A study of Mus musculus with 91 samples.

Results

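Regulatory T cells (Tregs) sorted from mouse spleen 4 h after an injection of IL-2 were compared with Tregs sorted at the same time after PBS. The comparison was chosen by sample title: the 4 libraries of the IL-2 group (libraries 1 to 4) and PBS libraries 1, 2 and 4 of the 4 h count table, which makes 7 of the 91 samples of the series. A library titled as the third PBS replicate and one titled as the third FP replicate carry labels that contradict each other and were left out. All animals were C57/BL6 mice whose Foxp3+ cells carry a red fluorescent reporter, and the groups differed in the injected molecule, mouse IL-2 or PBS. The labels used here give neither the dose of IL-2 nor the age of the animals, and they do not say whether libraries of a group came from separate animals, so the p-values describe variation among these libraries, which may be technical. The treatment text is shared by every sample and names 1.5 h, so the 4 h was taken from titles and treatment labels. The other groups set beside this comparison were 3 libraries at 4 h after a fusion protein of IL-2 and CD25 (FP), 4 each after IL-2 and PBS at 1.5 h, and 4 each after IL-2 and PBS at 16 h.

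IL-2 is the growth and survival cytokine of Tregs, which make little or none of it themselves and take it up through a receptor of high affinity built from CD25 (Il2ra), CD122 (Il2rb) and the common gamma chain (Il2rg). The receptor signals through the kinases JAK1 and JAK3 to the transcription factor STAT5, which induces feedback inhibitors of the SOCS family, survival genes and the receptor chain Il2ra itself. It also signals through PI3K and mTORC1, a route known to drive Myc- and ATF4-dependent programmes of ribosome production, amino acid uptake and one-carbon metabolism in activated T cells.

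The Treg label was checked against its defining genes, which were present in every library. Foxp3 stood at 641 to 766 CPM (counts scaled to library size with TMM factors) in IL-2 libraries and at 429 to 536 CPM in PBS libraries. Cd3e stood at 541 to 968 CPM after IL-2 and at 580 to 972 CPM after PBS, and Cd4 at 233 to 446 CPM after IL-2 and at 342 to 587 CPM after PBS. Library totals were 15.8 to 24.0 M counts after IL-2 and 14.5 to 22.5 M after PBS. The libraries differed from each other in a way that treatment did not order. The first principal component of log2 CPM held 60.4% of the variance and ran with the share of counts in TEC genes (a GENCODE class of loci with transcript evidence still to be tested), which was 0.205% to 1.19% after IL-2 and 0.207% to 1.15% after PBS. It ran in the other direction with the share in ribosomal protein genes, 2.70% to 7.47% after IL-2 and 2.60% to 5.63% after PBS. Library totals also fell along it. After IL-2 they went from 24.0 M at -82.97 (library 1) to 15.8 M at 72.84 (library 4). After PBS they went from 22.5 M at -67.35 (library 1) to 14.5 M at 67.36 (library 4). The second component, 16.5% of the variance, set the IL-2 libraries (-23.3 to -2.12) apart from the PBS libraries (40.2 to 59.4). None of the 8 lists of markers of other cells had a member that passed edgeR's test, with or without pairing of libraries; DESeq2 called 1 stromal and endothelial marker lower. The 16 B cell markers summed to 371 to 867 CPM after IL-2 and 487 to 948 CPM after PBS, and the 16 macrophage and dendritic cell markers to 233 to 858 CPM after IL-2 and 283 to 585 CPM after PBS. The summed stromal and endothelial markers, 5 of 11 tested, did not overlap, at 102 to 149.5 CPM after IL-2 and 166 to 205 CPM after PBS, and nearly all of that sum was Pecam1 (94.0 to 140 CPM after IL-2, 159 to 195 CPM after PBS), while Col1a1 and Col1a2 were at or below 1.01 CPM in every library of both groups. The part of these differences in the results was not tested, and in bulk RNA fewer cells of a type and less RNA per cell cannot be told apart.

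**Figure D1:**
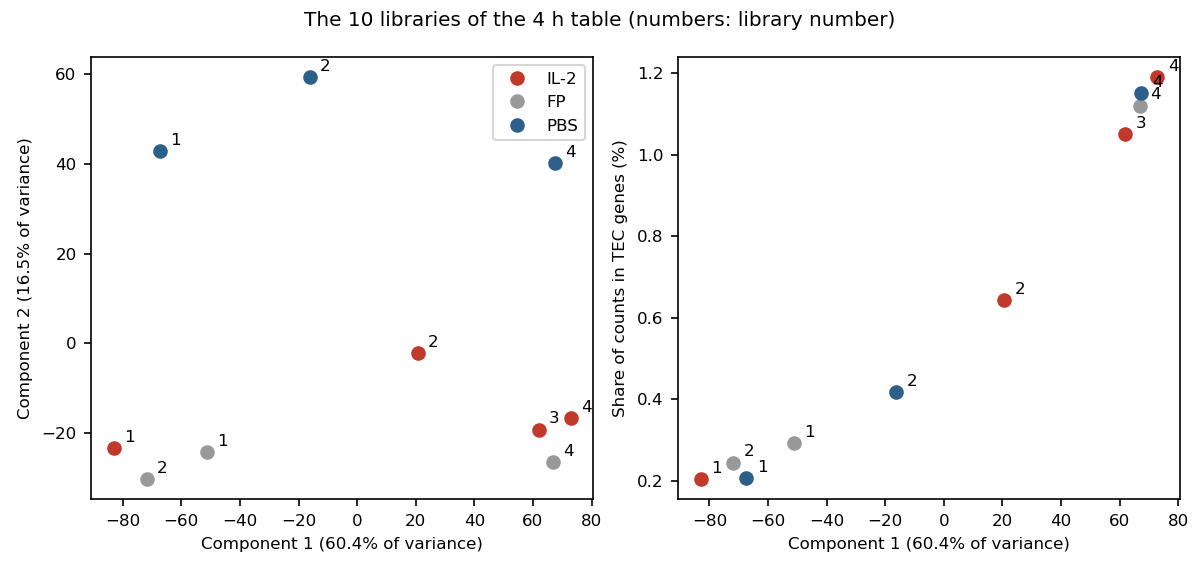
The 10 libraries of the 4 h table by their first and second principal component (left) and by their first component and the share of counts in TEC genes in percent (right); each point is a library, numbered as titled, with IL-2 in red, FP in grey and PBS in blue. The second component separates IL-2 libraries, at -23.3 to -2.12, from PBS libraries, at 40.2 to 59.4, and the first orders libraries of all groups together with the TEC share.

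More genes were called higher than lower after IL-2. Of 17636 genes tested, 115 (0.652%) passed an adjusted p of 0.01, with 100 higher after IL-2 (0.567%) and 15 lower (0.0851%). Of these, 95 rose and 12 fell at least 2-fold. Amino acid transporters and synthesis enzymes, tRNA synthetases, ribosome assembly factors, secreted factors and STAT5 feedback genes were among those that rose. Genes that fell included the cholesterol exporter Abca1 and the sialyltransferases St8sia6 and St8sia1. In all 115 genes the 4 IL-2 values and the 3 PBS values did not overlap, which was so for 15.8% of all genes tested (8.69% higher and 7.14% lower). The number of calls depended on single libraries: it was 90, 23, 26 and 56 without IL-2 libraries 1, 2, 3 and 4 in turn, and 10, 1 and 14 without PBS libraries 1, 2 and 4 in turn. The gene left without PBS library 2 was Lif, so that without it each gene list described here had 0 calls, apart from the lists that hold Lif, which had 1. When libraries with the same number were treated as pairs, 509 genes passed (2.89%), 417 higher (2.36%) and 92 lower (0.522%), among them all 115 and each in the same direction. That fit takes nothing from IL-2 library 3, which has no PBS partner. Without FP libraries in the estimate of spread, 27 genes passed, all of them among the 115. The share of calls that were higher also depended on the tool. Of the same 17636 genes, DESeq2 called 505 higher and 285 lower. Limma-voom with library weights called 2973 higher and 2916 lower, and both tools called all 115. Calls below are edgeR's, without pairing unless pairing is named, and "either fit" means edgeR without and with pairing. A gene not called may still have changed, since the test without pairing missed most simulated 2-fold changes. Of the named genes 24 were not called without pairing. Of these, 7 were called with pairing, the same 7 by DESeq2, and 14 by voom, among them 7 called in neither edgeR fit. The voom fit leaned on some libraries far more than on others. Its weights ran from 0.155 (library 1) to 5.22 (library 3) after IL-2. After PBS they ran from 0.402 (library 4) to 5.51 (library 2).

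**Figure D2:**
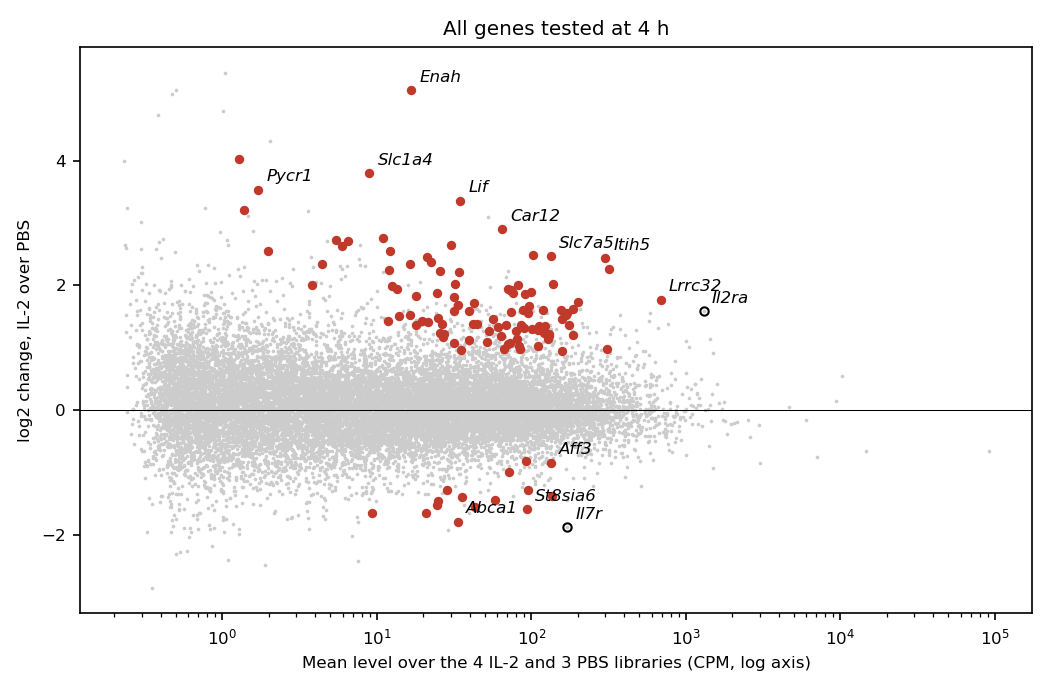
The log2 change between IL-2 and PBS libraries at 4 h for every gene tested against its mean level in CPM (log axis); red points are the 115 genes that passed an adjusted p of 0.01, and open circles mark Il2ra and Il7r, which of the edgeR fits passed in the one with libraries paired by number. Enah lies highest among called genes at 5.13, Abca1 lowest at -1.78, and called increases outnumber called decreases by 100 to 15.

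The largest increase among called genes was that of an actin regulator. Enah (chr1:181896384-182019990, GENCODE M21, GRCm38), which encodes a regulator of actin filament growth, had 21.7, 25.0, 36.2 and 30.8 CPM in IL-2 libraries 1 to 4, against 0.490, 1.00 and 0.938 CPM in PBS libraries 1, 2 and 4. Every IL-2 library was above every PBS library, with means of 28.4 ± 6.40 CPM (SD, n = 4) after IL-2 and 0.811 ± 0.280 CPM (SD, n = 3) after PBS. The log2 change was 5.13 ± 0.48 (SE; adjusted p = 0.00119). Car12 (chr9:66713686-66766845), a membrane carbonic anhydrase, had 107, 83.2, 119 and 104 CPM after IL-2 and 12.4, 9.88 and 19.1 CPM after PBS, a log2 change of 2.90 ± 0.27 (adjusted p = 0.00119). Itih5, which encodes a heavy chain of the inter-alpha-trypsin inhibitor family of matrix proteins, had 569, 440, 458 and 382 CPM after IL-2 and 93.8, 77.5 and 84.6 CPM after PBS, a change of 2.44 ± 0.18 (adjusted p = 0.00117). The groups lay far apart in both genes, with the lowest IL-2 library several times above the highest PBS library. Myb, a transcription factor of blood progenitors and lymphocytes, had 126, 136, 211 and 160 CPM after IL-2 and 23.5, 23.2 and 38.5 CPM after PBS, a change of 2.48 ± 0.28 (adjusted p = 0.00274). Further increases among the 15 largest (named genes averaging 5 CPM or more) were of Dna2, a nuclease-helicase of DNA replication and repair (2.75), Lrrc66 (2.72), Dock4, a guanine nucleotide exchange factor for Rac (2.64), and Dctd, the dCMP deaminase of thymidylate synthesis (2.46). Tcrg-C1, a constant segment of the T cell receptor gamma chain, rose by 2.63, and reads it shares with near-identical gamma segments make that value uncertain.

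**Figure D3:**
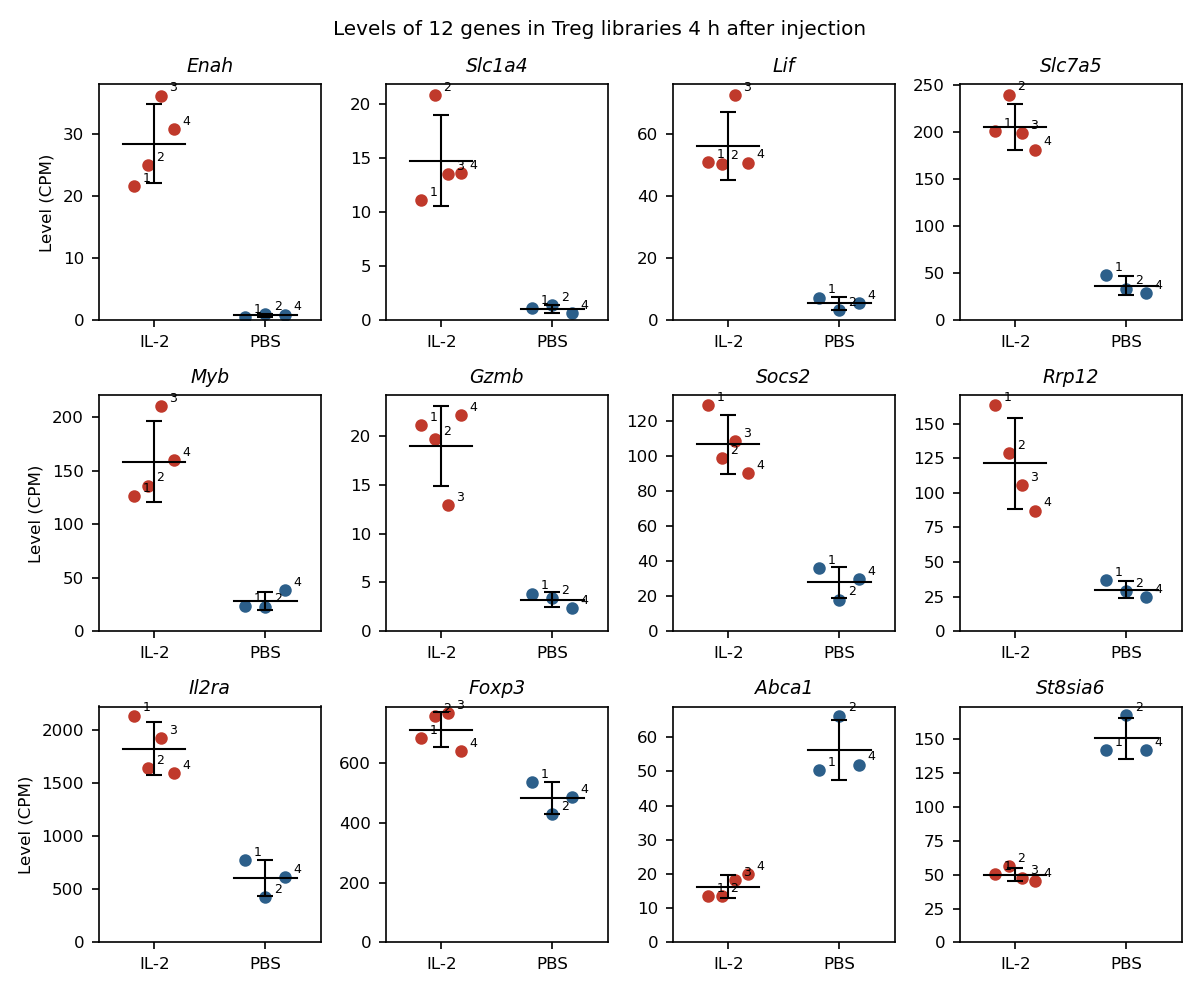
Levels in CPM of 12 genes in each IL-2 library (red, left in each panel) and each PBS library (blue, right), numbered as titled; horizontal bars are group means and error bars are 1 SD (n = 4 after IL-2, n = 3 after PBS), and each axis starts at 0. The groups do not overlap in any of the 12 panels; of the edgeR fits, Il2ra passed in the one with libraries paired by number, and Foxp3 in neither.

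No receptor component was called by edgeR without pairing, and Il2ra and Il2rb were called with it and by DESeq2 (adjusted p = 1.82e-08 and 0.00557). Il2ra had 2137, 1645, 1927 and 1596 CPM after IL-2 and 774, 431 and 617 CPM after PBS, with a log2 change of 1.59 ± 0.26. The groups did not overlap, and the adjusted p was 0.0127 without pairing and 0.00224 with libraries paired by number. Il2rb had 2730, 1910, 1524 and 1374 CPM after IL-2 and 1073, 935 and 565 CPM after PBS, a change of 1.14 ± 0.30 with an adjusted p of 0.0903, or 0.0039 with pairing. For Il2rg the groups overlapped, at 178 to 289 CPM after IL-2 and 192 to 292 CPM after PBS (-0.07 ± 0.23). In the list of 11 receptor, JAK and STAT genes, 0 passed in either direction, against 2 higher and 0 lower with pairing and 2 higher and 1 lower with DESeq2.

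Of 30 STAT5 feedback and target genes, 5 rose and 0 fell, 11 rose with pairing and 12 with DESeq2; the median log2 change was 0.64, against 0.06 over all genes tested. Socs2, a SOCS family inhibitor of cytokine receptor signalling, had 129, 98.7, 109 and 90.1 CPM after IL-2 and 36.0, 18.1 and 29.7 CPM after PBS (1.93 ± 0.26, adjusted p = 0.00491). Every IL-2 library was more than 2-fold above every PBS library. Cdk6, a kinase of the G1 phase, had 362, 488, 571 and 496 CPM after IL-2 and 82.0, 99.1 and 116 CPM after PBS (2.27 ± 0.25, adjusted p = 0.00205). Lrrc32 encodes GARP, the protein that holds latent TGF-beta on the Treg surface. It had 1048, 1068, 1012 and 808 CPM after IL-2 and 352, 249 and 263 CPM after PBS (1.77 ± 0.21, adjusted p = 0.00353). The feedback inhibitors Cish and Socs1 passed with pairing and with DESeq2 (adjusted p = 1.86e-07 and 5.19e-05), not with edgeR without pairing. Cish had 537, 473, 449 and 371 CPM after IL-2 and 234, 142 and 168 CPM after PBS, a change of 1.33 ± 0.22 with an adjusted p of 0.0119, or 0.00138 with pairing. Socs1 changed by 1.33 ± 0.24 (adjusted p = 0.02, or 0.000619 with pairing), and the survival gene Bcl2 by 0.95 ± 0.19 (adjusted p = 0.0294, or 0.00701 with pairing), with no overlap between the groups in either gene. Socs3 (-0.12 ± 0.26) and the kinase Pim1 (0.57 ± 0.22) passed in neither fit, and their groups overlapped.

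Of 18 secreted factors 3 rose and 0 fell, while the median was 0.02. Lif (chr11:4257557-4272514), an IL-6 family cytokine, had 51.0, 50.5, 72.5 and 50.8 CPM after IL-2 and 7.35, 3.349 and 5.69 CPM after PBS, a log2 change of 3.359 ± 0.28 (adjusted p = 0.00117). The lowest IL-2 library was over 6-fold above the highest PBS library. Lta, which encodes lymphotoxin alpha, had 126, 100.2, 127 and 89.9 CPM after IL-2 and 37.4, 20.9 and 32.0 CPM after PBS (1.88 ± 0.24, adjusted p = 0.00451). Hbegf, a membrane-bound growth factor of the EGF family, had 11.8, 8.75, 12.46 and 7.77 CPM after IL-2 and 1.91, 0.781 and 1.94 CPM after PBS (2.72 ± 0.36, adjusted p = 0.00491). Of 32 effector Treg genes, 1 rose and 0 fell, and the median was -0.09. That gene was Gzmb, the cytotoxic granule protease granzyme B, with 21.1, 19.7, 12.9 and 22.1 CPM after IL-2 and 3.87, 3.40 and 2.40 CPM after PBS (2.55 ± 0.37, adjusted p = 0.00733). With any 1 IL-2 or PBS library left out, the effector list had 0 calls. The effector genes Klrg1 (-0.78 ± 0.35), Prdm1 (-0.44 ± 0.42) and Icos (0.16 ± 0.35) were not called in either fit, and their groups overlapped.

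Among 22 Treg core genes 2 rose, Lrrc32 and Socs2, and 0 fell; 6 rose with pairing, and the median was 0.31. Foxp3 had 684, 757, 766 and 641 CPM after IL-2 and 536, 429 and 486 CPM after PBS. All IL-2 libraries were above all PBS libraries, yet the change of 0.56 ± 0.22 passed neither without pairing (adjusted p = 0.276) nor with it (0.166). Ikzf2, the transcription factor Helios, changed by 0.27 ± 0.19, Ctla4 by 0.11 ± 0.23 and Tnfrsf18, which encodes GITR, by 0.47 ± 0.42, none of them called in either fit. The list shares Il2ra, Il2rb, Lrrc32 and Socs2 with the responses above, so its count is not a separate one.

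Ribosome biogenesis had the highest median log2 change of the gene lists, 1.28, against 0.06 over all genes tested. Of its 45 members 10 rose and 0 fell, and 37 rose with pairing. All 45 had a positive log2 change and 39 were higher with no overlap between the groups, as were 8.69% of all genes tested. Rrp12, a factor for export of ribosome precursors, had 163, 129, 106 and 87.3 CPM after IL-2 and 37.0, 28.9 and 24.7 CPM after PBS (2.00 ± 0.24, adjusted p = 0.00315). Within the IL-2 libraries the Rrp12 values followed the order of the ribosomal protein share, highest in library 1 and lowest in library 4, and the same was so within PBS libraries; the part of that order in the result was not tested. Nat10, an RNA acetyltransferase acting on 18S ribosomal RNA, had 185, 158.5, 167 and 155 CPM after IL-2 and 53.7, 53.5 and 57.1 CPM after PBS (1.60 ± 0.16, adjusted p = 0.00147). Utp20, of the small subunit processome, changed by 1.53 ± 0.17 (adjusted p = 0.00278) and the nucleolar GTPase Gnl3 by 1.61 ± 0.19 (adjusted p = 0.00278). The count of called members was 0 without PBS library 1, 2 or 4 and 1, 3, 8 and 9 without IL-2 libraries 2, 3, 4 and 1 in turn, while the median lay between 1.02 and 1.44.

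Genes of amino acid uptake and synthesis were among those that rose. Of 17 amino acid transporters 3 rose and 0 fell, with a median of 0.24. Slc1a4 (chr11:20302180-20332713), a carrier of neutral amino acids, had 11.1, 20.8, 13.6 and 13.7 CPM after IL-2 and 1.13, 1.40 and 0.645 CPM after PBS (3.797 ± 0.35, adjusted p = 0.00119). Slc7a5 (chr8:121881150-121907694), the large neutral amino acid transporter LAT1, had 201, 240.3, 199 and 182 CPM after IL-2 and 48.3, 33.9 and 29.1 CPM after PBS (2.47 ± 0.21, adjusted p = 0.00119). Both genes were higher in each IL-2 library than in any PBS library. Slc7a1, a carrier of cationic amino acids, had 255, 327, 302 and 267 CPM after IL-2 and 98.4, 78.6 and 82.7 CPM after PBS (1.73 ± 0.16, adjusted p = 0.00119). Bcat1, the cytosolic branched-chain aminotransferase, changed by 2.38 ± 0.25 (adjusted p = 0.00192).

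In the list of ATF4 targets and amino acid synthesis enzymes 3 of 20 rose and 0 fell, 8 rose with pairing, and the median was 0.74. Pycr1, of proline synthesis, had 1.91, 3.90, 2.94 and 2.50 CPM after IL-2 and 0.147, 0.391 and 0.176 CPM after PBS (3.54 ± 0.46, adjusted p = 0.00458), a low gene with few counts after PBS. Gpt2, a mitochondrial alanine transaminase, had 5.10, 7.22, 6.67 and 7.83 CPM after IL-2 and 1.47, 1.45 and 0.997 CPM after PBS (2.35 ± 0.29, adjusted p = 0.00406). Shmt2, the mitochondrial serine hydroxymethyltransferase that feeds the folate cycle, had 266, 208, 181 and 159 CPM after IL-2 and 61.2, 52.0 and 37.8 CPM after PBS (2.02 ± 0.23, adjusted p = 0.00278). It is also a member of the one-carbon and nucleotide list, where 3 of 29 rose and 0 fell (11 with pairing; median 0.52). The other called members there were Mthfd1l, a mitochondrial formyltetrahydrofolate synthetase (1.25 ± 0.17, adjusted p = 0.00531), and Cad, the enzyme of the first steps of pyrimidine synthesis (1.63 ± 0.24, adjusted p = 0.0071). Of 23 tRNA synthetase genes, whose products load amino acids onto tRNA, 4 rose and 0 fell, 14 rose with pairing, and the median was 0.97. Cars, for cysteine, had 91.8, 113, 112 and 113 CPM after IL-2 and 32.2, 25.2 and 27.5 CPM after PBS (1.92 ± 0.15, adjusted p = 0.00117). Iars, for isoleucine, had 202, 229.8, 222 and 223 CPM after IL-2 and 79.3, 66.1 and 69.6 CPM after PBS (1.61 ± 0.14, adjusted p = 0.00119). The spread within each group was small beside the gap between them. Mars, for methionine (1.56 ± 0.21, adjusted p = 0.00531), and Yars, for tyrosine (1.37 ± 0.19, adjusted p = 0.006), completed the called members.

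Promoter letters of genes described above are shown because some of them hold motifs of ATF4, Myc and STAT5. Windows of 250 bases before to 50 bases after gene starts were taken from RefSeq (GRCm38.p6), which held 78 of the 100 genes called higher, 11 of the 15 called lower and 10731 genes tested. The letters TGATGCAA, an ATF4 motif of amino acid response genes, were searched on both strands. They were found in 4 of the 78 genes called higher (5.13%), 0 of the 11 called lower and 81 of all tested genes with a window (0.755%). By list, 4 of 15 tRNA synthetases (26.7%), 3 of 13 amino acid transporters (23.1%) and 4 of 21 ATF4 and amino acid synthesis genes with a window held them. The 4 called genes are printed 5′ to 3′ on the gene's strand with the match in capitals, which reads TTGCATCA where it lies on the opposite strand.
Slc1a4, chr11:20332670-20332757, minus strand: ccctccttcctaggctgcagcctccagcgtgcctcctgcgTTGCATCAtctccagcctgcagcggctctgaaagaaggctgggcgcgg
Pycr1, chr11:120643804-120643891, minus strand: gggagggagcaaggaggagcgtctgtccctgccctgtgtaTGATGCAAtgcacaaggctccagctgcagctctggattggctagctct
Iars, chr13:49682097-49682179, plus strand: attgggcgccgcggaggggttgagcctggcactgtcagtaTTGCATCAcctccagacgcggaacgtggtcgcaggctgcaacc
Yars, chr4:129189866-129189952, plus strand: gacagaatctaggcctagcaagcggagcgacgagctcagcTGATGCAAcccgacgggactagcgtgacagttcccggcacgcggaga
The E-box letters CACGTG, bound by Myc and Max, read the same on both strands and were in 17 of the 78 genes called higher (21.8%), 2 of the 11 called lower (18.2%) and 1217 tested genes (11.3%), and in 10 of 40 ribosome biogenesis genes with a window (25.0%). Windows of Mettl1, a tRNA methyltransferase subunit, Utp20 and Cdk6 are printed around their match, in capitals.
Mettl1, chr10:127041922-127041981, plus strand: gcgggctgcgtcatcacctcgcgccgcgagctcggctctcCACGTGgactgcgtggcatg
Utp20, chr10:88826765-88826817, minus strand: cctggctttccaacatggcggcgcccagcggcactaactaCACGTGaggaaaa
Cdk6, chr5:3343643-3343718, plus strand: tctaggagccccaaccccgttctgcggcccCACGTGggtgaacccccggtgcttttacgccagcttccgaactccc
The STAT5 letters TTCNNNGAA, which also read the same on both strands, were in 12 of the 78 genes called higher (15.4%), 1 of the 11 called lower (9.09%), 905 tested genes (8.43%) and 6 of 23 STAT5 feedback and target genes (26.1%). Cish, Lta and Gzmb are printed around their first match; both matches of Cish fall in the printed stretch. None of the 3 sets of letters contains another, and a match is a description of the letters, not of binding.
Cish, chr9:107296619-107296707, plus strand: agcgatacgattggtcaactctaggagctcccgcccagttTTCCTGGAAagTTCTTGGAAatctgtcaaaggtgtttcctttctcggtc
Lta, chr17:35205455-35205543, minus strand: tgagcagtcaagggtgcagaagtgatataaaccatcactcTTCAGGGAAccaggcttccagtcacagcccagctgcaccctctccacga
Gzmb, chr14:56262285-56262337, minus strand: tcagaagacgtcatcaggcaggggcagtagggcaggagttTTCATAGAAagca

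Hk2, the hexokinase of growing cells, had 50.5, 40.4, 35.8 and 27.7 CPM after IL-2 and 9.26, 8.15 and 7.27 CPM after PBS (2.229 ± 0.22, adjusted p = 0.00147). Of 28 glycolysis and pentose phosphate genes 1 rose and 0 fell, with a median of 0.25; 3 rose with pairing, and DESeq2 called 2 higher and 1 lower. In the list of 33 translation factors 1 rose, Eif2b3, a subunit of the exchange factor for eIF2 (1.17 ± 0.17, adjusted p = 0.00669), and 0 fell, with a median of 0.60. Of 34 chaperone genes 0 were called in either direction, although the median was 0.75 and 7 rose with pairing. Of 32 oxidative phosphorylation genes 0 were called in either fit (median 0.25). Ezh2, the H3K27 methyltransferase of Polycomb complex 2, was the only called one of 30 chromatin regulators, with 107, 88.8, 128 and 98.6 CPM after IL-2 and 42.2, 37.2 and 52.3 CPM after PBS (1.26 ± 0.18, adjusted p = 0.00669). The list of chromatin regulators had 0 calls with any 1 IL-2 or PBS library left out.

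**Figure D4:**
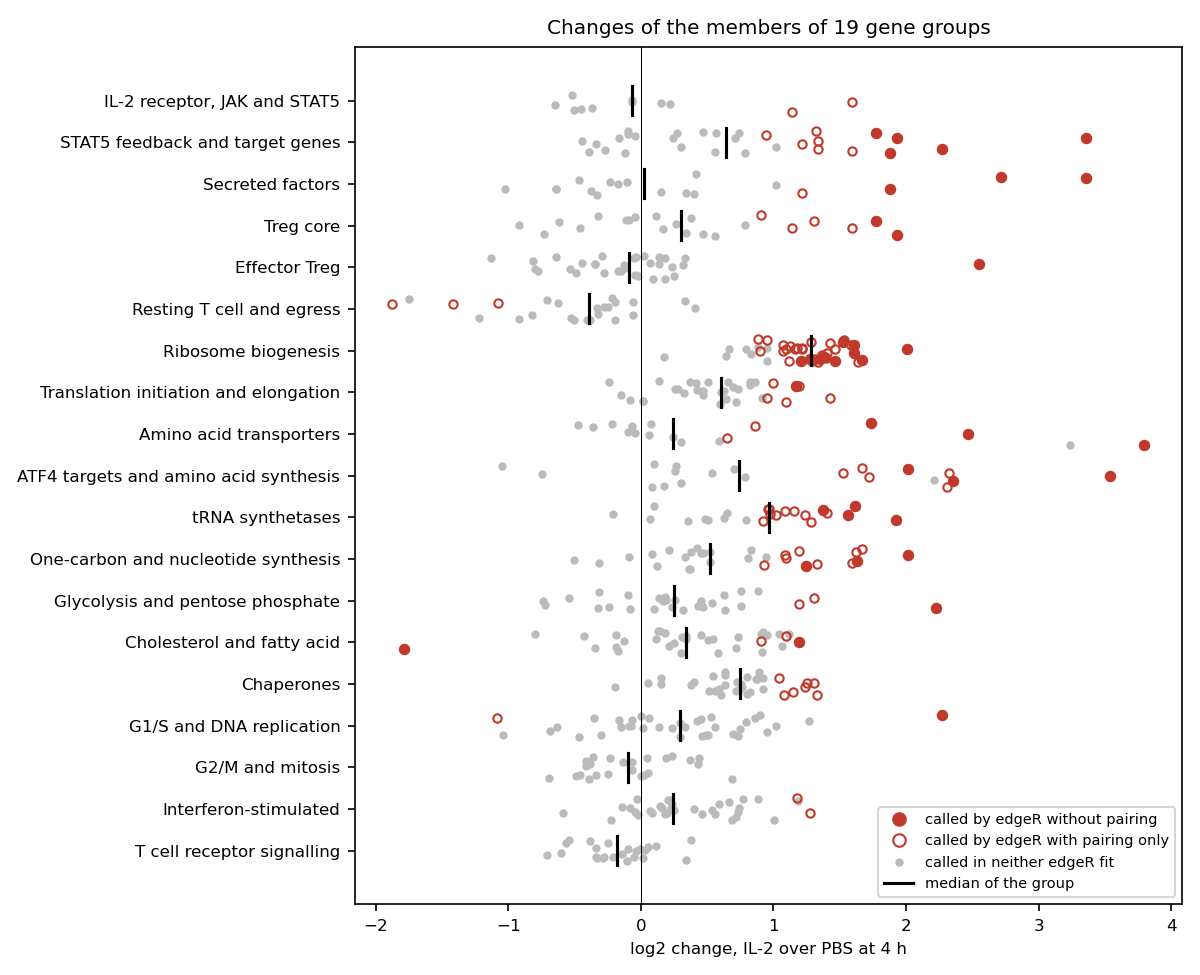
The log2 change between IL-2 and PBS libraries at 4 h of every tested member of 19 gene lists; filled red points passed an adjusted p of 0.01, open red points passed in edgeR's fit with libraries paired by number and not in the one without, grey points passed in neither, and vertical bars are list medians. All 45 ribosome biogenesis genes lie above 0 with a median of 1.28, while 24 G2/M and mitosis genes have a median of -0.10 and no call.

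Genes that fell after IL-2 included lipid and glycolipid enzymes and nuclear factors. Abca1 (chr4:53030787-53159895), which exports cholesterol from cells, had 13.4, 13.5, 18.3 and 20.1 CPM after IL-2 and 50.5, 66.3 and 52.0 CPM after PBS (-1.78 ± 0.24, adjusted p = 0.00531). Acss2, which makes acetyl-CoA from acetate, had 15.9, 13.97, 13.5 and 13.4 CPM after IL-2 and 39.9, 37.0 and 40.2 CPM after PBS (-1.46 ± 0.18, adjusted p = 0.00353). Acaca, the acetyl-CoA carboxylase of fatty acid synthesis, rose instead, to 83.6 to 85.9 CPM after IL-2 against 28.9 to 41.6 CPM after PBS (1.20 ± 0.17, adjusted p = 0.0068). The cholesterol and fatty acid list of 34 genes, which holds Abca1 and Acaca but not Acss2, had 1 call in each direction without pairing. It had 0 calls with any 1 IL-2 or PBS library left out. With pairing 3 rose and 1 fell, and with DESeq2 8 rose and 1 fell. Of the 34 genes 26 had a positive change, and the median was 0.34, against 0.06 over all genes tested. The alpha-2,8-sialyltransferase St8sia6 had 50.7, 56.6, 47.5 and 45.5 CPM after IL-2 and 142, 168 and 142 CPM after PBS (-1.59 ± 0.15, adjusted p = 0.00119). St8sia1, the GD3 ganglioside synthase, had 27.8, 33.2, 32.8 and 39.9 CPM after IL-2 and 96.0, 85.8 and 88.9 CPM after PBS (-1.43 ± 0.16, adjusted p = 0.00274). Both fell to well under the lowest PBS library in all 4 IL-2 libraries. The other named decreases were of Rnf144a, a ubiquitin ligase (-1.65), Rec8, a meiotic cohesin subunit (-1.65), Xylt1, a xylosyltransferase of proteoglycan synthesis (-1.52), Dzip1 (-1.39), the actin crosslinker Actn1 (-1.38), the Polycomb-related Scml4 (-1.27), the POU factor Pou6f1 (-1.27), Atxn1 (-0.99), Aff3 (-0.84) and Phf21a (-0.82). Pecam1, which carries the stromal and endothelial sum given above, changed by -0.71 in the same libraries (adjusted p = 0.0554).

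Of 24 genes of resting T cells 0 passed in either direction without pairing, 3 fell with pairing and 6 with DESeq2. Over all 17636 genes tested, 92 fell with pairing and 285 with DESeq2. Of the 24 genes 22 had a negative change, and the median was -0.39, against 0.06 over all genes tested. The 8 tested markers of conventional helper T cells had 0 calls and 0 positive changes, with a median of -0.37, and summed to 65.2 to 158 CPM after IL-2 and 94.8 to 180 CPM after PBS; their part in the result was not tested. Il7r, the receptor for the survival cytokine IL-7, had 116.5, 79.9, 61.1 and 59.5 CPM after IL-2 and 253, 454.5 and 163 CPM after PBS. The groups did not overlap, but PBS libraries varied widely, and the change of -1.87 ± 0.36 had an adjusted p of 0.0267, or 0.000843 with pairing. Tcf7, the transcription factor TCF-1 of naive and memory-like T cells, had 372, 289.9, 203 and 225 CPM after IL-2 and 680.3, 619 and 424 CPM after PBS (-1.07 ± 0.25, adjusted p = 0.058, or 0.00263 with pairing). The egress receptor S1pr1 (-0.33 ± 0.18), the lymph node homing receptor Ccr7 (-0.19 ± 0.40), the transcription factor Klf2 (-0.06 ± 0.25) and the pro-apoptotic Bbc3 (-1.05 ± 0.39) were called in neither fit. The Bbc3 value was -0.48 without PBS library 2 and -1.42 without PBS library 4.

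Mitosis genes had no call at 4 h. Of 24 G2/M and mitosis genes 0 were called in either fit. Mki67, a marker of dividing cells, had 20.4, 16.8, 25.3 and 22.3 CPM after IL-2 and 34.1, 18.4 and 32.1 CPM after PBS, overlapping groups with a change of -0.41 ± 0.23 (adjusted p = 0.498). Of 37 G1/S and replication genes 1 rose, Cdk6, and 0 fell. With pairing 1 rose and 1 fell, and with DESeq2 5 rose and 1 fell. Dna2, given above, is not in this list. The replication factor Mcm10 had 0.685 to 3.68 CPM after IL-2 and 0.670 to 1.96 CPM after PBS (0.69 ± 0.59). Myc itself had 306, 202, 189 and 145 CPM after IL-2 and 164, 117 and 96.9 CPM after PBS; the groups overlapped and the change of 0.74 ± 0.27 was not called (adjusted p = 0.223, or 0.0218 with pairing). Of 30 replication-dependent histone genes and of 34 interferon-stimulated genes 0 were called, with medians of -0.30 and 0.24; 2 interferon-stimulated genes rose with pairing. None of 24 T cell receptor signalling genes passed in either fit.

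The same contrast was also made at 1.5 h and 16 h, in separate count tables whose column names carry other dates. Time and table cannot be told apart, so a difference between times may be one between tables. At 1.5 h, 1397 genes rose (8.39%) and 963 fell (5.79%) by the same threshold, in libraries with a smaller spread (16.3% common biological variation, against 38.4% in the 4 h table). Of the 100 genes higher at 4 h, 98 were tested at 1.5 h and 90 were called higher at 1.5 h, which is 90% of the 4 h list and 6.44% of the 1.5 h list. Of the 15 lower at 4 h, 12 were called lower at 1.5 h, 80% of the 4 h list and 1.25% of the 1.5 h list. At 16 h, where 61 genes passed (0.35%), 60 of them higher (0.344%) and 1 lower (0.00573%), 0 of the 100 and 0 of the 15 were called.

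The difference between the effects at 4 h and 1.5 h was tested in a joint fit of 23 libraries. In it each time kept its own PBS libraries. That fit shares 1 estimate of spread, although common biological variation was 38.4% at 4 h, 16.3% at 1.5 h and 11.15% at 16 h. It was 23.2% in the joint fit. The SE of the 4 h effect was 0.33 for Enah, against 0.48 in the 4 h fit, and 0.29 against 0.24 for Abca1. For some genes, differences from 4 h may look better supported than the 4 h libraries allow. Of 17455 genes, 1 passed (0.00573%), at an unadjusted p under 0.05 there were 1376, and with DESeq2 63 passed. The gene was Tent5a, a non-canonical poly(A) polymerase: its effect was -0.48 ± 0.13 at 4 h and 0.95 ± 0.12 at 1.5 h (difference -1.44 ± 0.18, adjusted p = 0.000835). At 4 h Tent5a had 29.8, 33.5, 28.9 and 21.5 CPM after IL-2 and 42.7, 42.3 and 31.8 CPM after PBS, with overlap between the groups. Several genes called at 4 h were not called at 1.5 h, and the differences of the 3 given here did not pass in that fit. Dock4 had an effect of 2.63 ± 0.36 at 4 h and 0.43 ± 0.30 at 1.5 h (adjusted p of the difference = 0.0439). For Abca1 the effects were -1.80 ± 0.29 at 4 h and -0.12 ± 0.27 at 1.5 h (0.0957), and for Acaca 1.18 ± 0.12 at 4 h and 0.17 ± 0.11 at 1.5 h (0.0118). The Acaca difference passed with RLE scaling (adjusted p = 0.00828), with no low-count filter (0.00992) and with the replicate block (0.00615). Slc1a4 was higher at both times, by 3.77 ± 0.35 at 4 h and 1.60 ± 0.31 at 1.5 h (0.0463).

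Between 16 h and 4 h the effect differed for 748 genes (4.29%), with a lower effect at 16 h for 512 (2.93%) and a higher one for 236 (1.35%). Of the ribosome biogenesis genes 38 of 45 had a lower effect at 16 h, of the tRNA synthetases 13 of 23 and of the STAT5 feedback and target genes 11 of 30, with 0 higher in each list. Among named genes averaging 5 CPM or more over the libraries of both times, the largest decline was of Enah, with an effect of -0.41 ± 0.32 at 16 h and 5.12 ± 0.33 at 4 h (difference -5.53, adjusted p = 5.94e-08). It was followed by Gcsh, of the glycine cleavage system (-3.50), Car12 (-3.27), Lif (-3.17), Slc7a5 (-2.81), Mettl1 (-2.79), Dctd (-2.74) and Myb (-2.63). Below that level, declines that also passed included those of Pycr1 (-4.74), Slc1a4 (-4.21), Tcrg-C1 (-3.36) and Hbegf (-3.02), named here after their values were seen. At 16 h the effects of the 8 more abundant genes lay between -0.61 and 0.17. Among genes with a higher effect at 16 h, Rec8, Cd7, Sptb, Abca1 and Pdk2 had effects of -2.46 to -1.67 at 4 h and of -0.20 to 0.59 at 16 h. For Abca1 the effect was 0.35 ± 0.27 at 16 h and -1.80 ± 0.29 at 4 h. The mitosis genes Cit and Cenpe and the division gene Arhgap11a were called higher in the 16 h table, with a joint-fit effect for Cit of 1.38 ± 0.22 at 16 h and -0.76 ± 0.25 at 4 h. Mki67 likewise had an effect of 1.20 ± 0.18 at 16 h and -0.43 ± 0.20 at 4 h (difference 1.63 ± 0.27, adjusted p = 0.000343), and 12 of 24 G2/M and mitosis genes were called higher in the 16 h table, with 0 at 4 h.

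**Figure D5:**
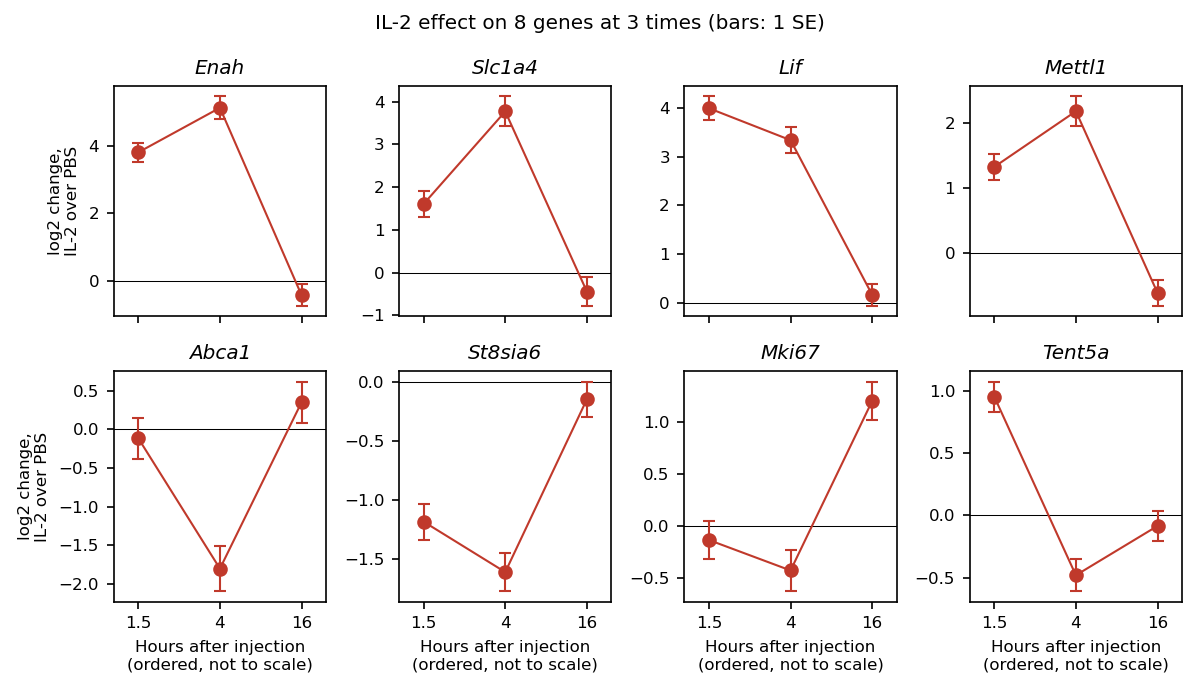
The log2 change between IL-2 and PBS libraries of 8 genes at 1.5 h, 4 h and 16 h from the joint fit of 23 libraries, with bars of 1 SE; times are in order but not to scale and each panel has its own axis. Enah, Slc1a4, Lif and Mettl1 are above 0 at 1.5 h and 4 h. At 16 h they are at -0.41, -0.44, 0.17 and -0.61 in turn. Abca1 is at -1.80 at 4 h and at -0.12 and 0.35 at the other times, and Mki67 is at 1.20 at 16 h.

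FP, the fusion of IL-2 with CD25, was the molecule closest to IL-2 at the same time, and was compared with IL-2 directly. Of 17636 genes 0 passed (0%) with edgeR, 482 had an unadjusted p under 0.05, and DESeq2 called 4: Klf3 and Lzts2 higher and Map3k8 and Cmya5 lower after IL-2, named here after their values were seen. Hbegf had 7.77 to 12.46 CPM after IL-2 and 18.7 to 26.9 CPM after FP. Lif had 50.5 to 72.5 CPM after IL-2 and 74.4 to 88.0 CPM after FP. Lta stood at 89.9 to 127 CPM after IL-2 and 170 to 246 CPM after FP. Enah overlapped, at 21.7 to 36.2 CPM after IL-2 and 14.5 to 39.8 CPM after FP. None of these differences passed (adjusted p = 0.951 for Hbegf, Lif, Lta and Enah). How many of all genes had no overlap between IL-2 and FP libraries was not counted, so no pattern is read from these ranges. The labels name a dose for FP and none for IL-2, so the amounts injected cannot be set beside each other.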

How the data were processed

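Spleen Tregs were profiled by total RNA sequencing of ribosome-depleted libraries. The deposited values are raw read counts per gene, made by the authors with STAR 2.5.0 and featureCounts 1.5.0 on GRCm38, per the submitters' processing notes; the strand setting of counting is not given in the sources used here, so overlapping antisense genes cannot be told apart. Of 18118 genes in the deposited 4 h table, 17636 passed edgeR's filterByExpr. Counts were scaled by TMM and tested, 2-sided, with edgeR 4.0.16 (quasi-likelihood, Benjamini-Hochberg adjustment, R 4.3.3) with a mean for each of the IL-2, FP and PBS groups at 4 h, which share 1 estimate of spread. A gene was called at an adjusted p below 0.01. Each SE of a log2 change was derived from the test, as the absolute log2 change divided by the square root of its F statistic. Times were compared in a joint fit of 23 libraries over 17455 genes. The scripts were tested on simulated data. There the 4 h test recovered 1 of 79 simulated log2 changes of 1 (1.27%). It recovered 34 of 58 changes of 2 (58.6%) and 52 of 63 changes of 3 (82.5%). Alternatives used DESeq2 1.42.0, limma 3.58.1 and other settings given in the closing section. No pair of libraries within a group agreed within sampling noise.

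Replicate numbers were checked for pairing: deviations of same-numbered IL-2 and PBS libraries from their group means correlated at 0.797, 0.375 and 0.798 for numbers 1, 2 and 4, all above 0.1. Different-numbered pairs correlated at -0.829 to 0.759, the highest being IL-2 library 3 with PBS library 4. Tags in the column names are shared by IL-2 and PBS libraries 2 and by IL-2 and PBS libraries 4, but not by IL-2 and PBS libraries 1. IL-2 library 1 shares its tag with FP library 1, but PBS library 1 shares its tag with FP library 2, against the numbers. The paired fit also holds the FP libraries, grouped by number. This pairing is a hint from the data, since the labels do not say what a number marks.

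Named genes were the 15 largest increases and up to 15 largest decreases (14 qualified) of called genes that averaged 5 CPM or more and carry a gene name, up to 4 members of each list with a call by smallest p, a fixed panel, and up to 8 of the largest called differences between times in each direction, by the same minimum over the libraries of both times. The members and lists were chosen with earlier results of these data known.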

Additional observations from a re-analysis of the deposited data

Results flagged for a closer look

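In 4 of 75 named genes, 1 of the 4 IL-2 libraries at 4 h lay far from the other 3 by Dixon's criterion, which chance meets in about 1 in 20 groups. Lif had 72.5 CPM in IL-2 library 3 and 50.5 to 51.0 CPM in the others. Dctd had 49.8 CPM in IL-2 library 1 and 25.5 to 29.2 CPM in the others. Pou6f1 had 20.9 CPM in IL-2 library 2 and 16.4 to 17.1 CPM in the others. Cars had 91.8 CPM in IL-2 library 1 and 112 to 113 CPM in the others.

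Of the 75 genes named for the 4 h comparison, 55 had an IL-2 effect that differed between 16 h and 4 h by a test of the difference, 40 lower and 15 higher at 16 h; those whose difference is discussed are given here, with genes named for a difference between times. Tent5a differed by -1.44 between 4 h and 1.5 h. Between 16 h and 4 h the difference was 2.26 for Rec8, 2.25 for Cd7, 2.19 for Sptb, 2.15 for Abca1, 2.13 for Cit, 1.81 for Pdk2, 1.74 for Cenpe, 1.73 for Arhgap11a and 1.63 for Mki67. It was -5.53 for Enah, -4.74 for Pycr1, -4.21 for Slc1a4, -3.50 for Gcsh, -3.36 for Tcrg-C1, -3.27 for Car12, -3.17 for Lif, -3.02 for Hbegf, -2.81 for Slc7a5, -2.79 for Mettl1, -2.74 for Dctd and -2.63 for Myb.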

How the results depend on the processing

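The count of genes changed by IL-2 at 4 h, 115, was 119 with RLE scaling and 114 with no low-count filter. It was 790 with DESeq2, 416 at an adjusted p below 0.05, 27 with only IL-2 and PBS libraries and 5889 with voom and library weights. It was 509 with the replicate block, and, in alternatives chosen after seeing the data, 1476 with the block on libraries 1, 2 and 4 only and 1252 with the tag of the column names as a factor. Leaving out 1 library gave 1 to 90. The difference between 4 h and 1.5 h, 1 gene, gave 63 with DESeq2, 6 with RLE scaling, 5 with no filter, 36 at 0.05, 5812 with voom, 19 with the replicate block and 1 to 30 with 1 library left out. The difference between 16 h and 4 h, 748 genes, gave 1232 with DESeq2, 1537 at 0.05, 6286 with voom, 1377 with the block and 531 to 1023 with 1 library left out. Numbers did not pair libraries at 1.5 h (correlations -0.134 to 0.175) or 16 h (0.0321 to 0.101). Genes that differ between IL-2 and FP numbered 0, and 4 with DESeq2. The cause of these changes was not tested.

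Some genes that were not called changed sign in log2 change. With the block, Il2rg was 0.026 and Klf2 0.024, or Klf2 0.0024 on libraries 1, 2 and 4 only. With voom Ctla4 was -0.26, Tnfrsf18 -0.069, Icos -0.37 and Mki67 0.21, and with the tag as a factor Il2rg was 0.066 and Ctla4 -0.011. With 1 library left out, the value ranged over -0.046 to 0.39 for Icos, -0.28 to 0.094 for Klf2, -0.24 to 0.12 for Il2rg, -0.41 to 0.062 for Socs3, -0.054 to 0.38 for Ctla4, -0.64 to 0.060 for Ccr7 and -0.77 to 0.0016 for Prdm1. The effect of depth was not tested.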
